A study of Homo sapiens with 12 samples.

Results

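The proteasome genes described here are the rows of the deposited count table whose symbol is PSMA, PSMB, PSMC or PSMD followed by a number, together with PSME1, PSME2, PSME3, PSME4, POMP and NFE2L1. This rule, which uses names and no measured value, gave 45 of the 58307 rows with a gene name. The 26S proteasome is the ATP-dependent protease that degrades ubiquitin-tagged proteins. Its barrel-shaped core is built from alpha and beta rings, and PSMB5, PSMB6 and PSMB7 carry the catalytic sites. Under interferon, cells can replace these with PSMB8, PSMB9 and PSMB10 and cap the core with PSME1 and PSME2 (PA28), which changes the peptides offered on class I molecules. NFE2L1 (NRF1) is the transcription factor that raises proteasome genes together when the proteasome is overloaded, and mTORC1, the target of rapamycin, is known to act on proteasome gene expression.

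A375 and SK-MEL-28, both sold as human malignant melanoma lines, were given etoposide, a topoisomerase II poison, or etoposide and rapamycin, an mTOR inhibitor. All 4 groups therefore carried etoposide, and no untreated or rapamycin-only libraries were analysed here. PolyA-selected RNA of 3 libraries per group was sequenced, 12 libraries in all, and doses and times are not given in the labels. The study asked how an inducer of autophagy makes melanoma cells more sensitive to etoposide, and in the proteasome genes the comparisons address what rapamycin added to etoposide in each line, whether that response differed between the lines, and how the lines differed under etoposide alone.

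Library totals ran from 28189501 to 32499337 counts, of which 0.587% to 0.680% lay on the 45 genes. The labels were first set against melanocyte genes. SOX10 (166 to 579 CPM, counts scaled to library size), S100B (56.7 to 106 CPM) and MITF (12.1 to 29.7 CPM) were present in all 12 libraries, whereas the pigment genes PMEL, MLANA, TYR, DCT and TYRP1 did not pass 2.99 CPM in any library of either line. SK-MEL-28 is known as a line that carries melanocyte differentiation antigens, so these libraries went against that label, and their identity was not tested. MITF was called lower with rapamycin in both lines (log2 fold changes -0.51 and -0.50) and S100B in A375 (-0.58). DCT was also called lower in A375 (-1.70), at low levels of 0.714 CPM on average with etoposide and 0.215 CPM with rapamycin. The log2 of mean CPM under etoposide (0.5 CPM added) had a Pearson correlation of 0.985 between the lines across 20101 genes. These genes are not independent replicates, and 0.791% of them differed more than 8-fold. Below, SK-MEL-28 means the libraries with that label. Of the other markers, PTPRC, CD3E and CD14 (leukocytes), KRT5 and KRT1 (keratinocytes) did not pass 0.632 CPM and were at 0 in at least 1 library each, and COL1A1 (fibroblasts) did not pass 2.35 CPM. Other markers of these lists were present, KRT10 at 41.3 to 62.8 CPM, KRT14 at 4.84 to 9.98 CPM, LUM at 3.92 to 28.9 CPM, PDGFRB at 11.2 to 21.2 CPM, PDGFRA at 3.92 to 6.70 CPM and DCN at 0.838 to 6.84 CPM. CD68, a marker of macrophages, was at 19.6 to 52.0 CPM over the 12 libraries and was called higher with rapamycin in both lines (log2 fold changes 0.53 and 0.64), with overlapping groups. The summed CPM of the 5 fibroblast markers was lower with rapamycin without overlap, at 28.9 or less against 29.2 to 34.1 in A375 and at 40.4 to 42.3 against 46.2 to 52.5 in SK-MEL-28. That of the 4 keratinocyte markers overlapped in both lines. Of the fibroblast markers, PDGFRB went against the sum, higher with rapamycin without overlap in both lines (log2 fold changes 0.29 and 0.33, neither called). The other 4 fibroblast markers had negative log2 fold changes in both lines. The part of these markers in the results was not tested.

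The level of each gene was compared per kilobase of its canonical transcript (CPM per kb, mean of the 12 libraries by group). The 43 genes with enough counts to be tested spanned 13.5 to 657 CPM per kb. PSMB4, a non-catalytic beta subunit, was highest, followed by PSMA7 (288 CPM per kb), an alpha subunit, and PSMB7 (225 CPM per kb). The constitutive catalytic subunits lay at 92.8 (PSMB6), 132 (PSMB5) and 225 CPM per kb (PSMB7), and the inducible ones at 13.5 (PSMB9), 29.5 (PSMB10) and 32.3 CPM per kb (PSMB8). Per transcript length, each inducible catalytic subunit was thus below the constitutive one it can replace in all 4 groups. PSMB5 was 3.95 to 4.49 times PSMB8, PSMB6 was 6.14 to 7.71 times PSMB9, and PSMB7 was 6.69 to 8.21 times PSMB10. PSME1 and PSME2, whose products form a joint ring, were close to each other at 80.1 and 88.7 CPM per kb. Per transcript length, subunits of the same particle were far apart, from 26.8 (PSMA5) to 288 CPM per kb (PSMA7) within the alpha ring. Among the ATPases of the base the range was from 22.1 (PSMC1) to 152 CPM per kb (PSMC5). Part of this spread lay in the lengths, at 3.82 kb for PSMA5 and 0.962 kb for PSMA7, and at 4.39 kb for PSMC1 and 1.33 kb for PSMC5. Whether these cells express the canonical transcripts was not tested. The low end held the assembly chaperones PSMD5 and PSMD9 (14.5 and 17.9 CPM per kb), while POMP, which matures the core, was at 125 CPM per kb. PSMA8, the alpha subunit of the testis, and PSMB11, the beta subunit of the thymus, had at most 6 counts in any library and were not tested.

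**Figure D1:**
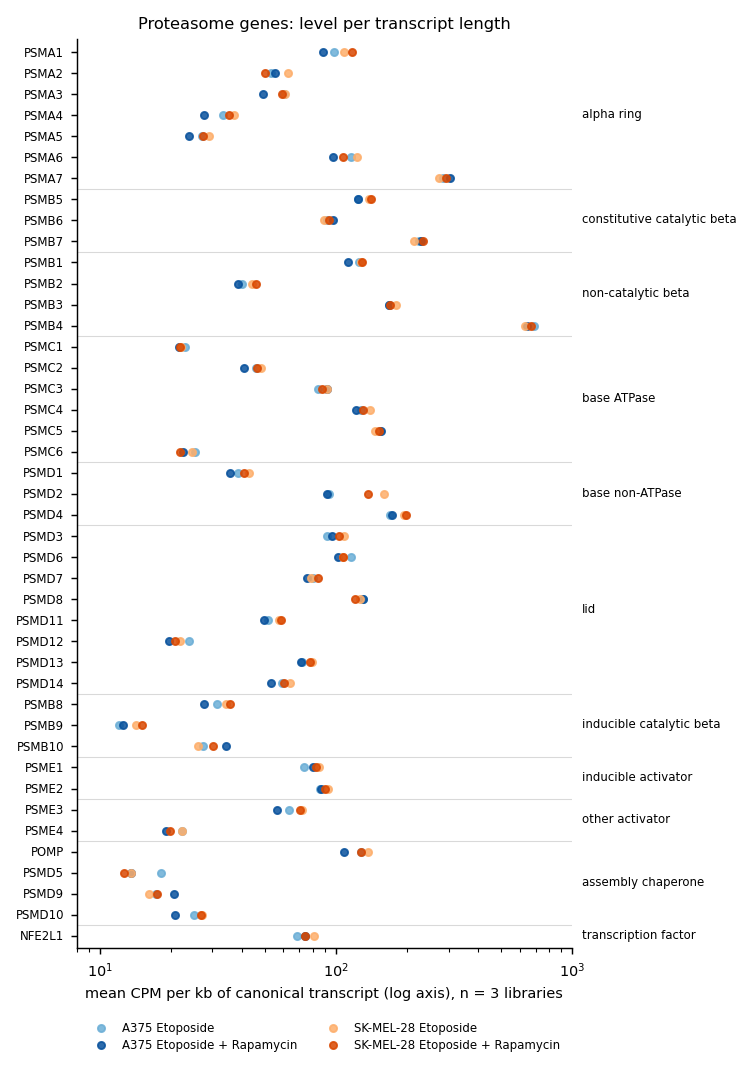
Mean level per kilobase of canonical transcript (CPM per kb, log axis) of the 43 tested proteasome genes in the 4 groups, n = 3 libraries each, ordered by role. PSMB8, PSMB9 and PSMB10 sit between 12.1 and 35.8 CPM per kb, below PSMB5, PSMB6 and PSMB7 in every group.

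Promoters were read from RefSeq (GRCh38.p14, 250 bases before to 50 after the start), which held 40 of the 45 genes. They are shown for the inducible genes because the interferon-stimulated response element, searched on both strands as a pair of GAAA blocks separated by 2 free bases, was found in 3 of the 5 inducible genes and 2 of 26 constitutive subunits (PSMA4 and PSMB4), against 3.57% of all 35116 promoters of that length. The 30-base windows below are written 5′ to 3′ on the strand of the gene, with the match in capitals.
PSMB10: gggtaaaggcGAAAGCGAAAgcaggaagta
PSME2: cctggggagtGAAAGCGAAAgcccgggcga
PSME1: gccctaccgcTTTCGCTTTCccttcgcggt
These lie at chr16:67936852-67936881 on the minus strand, chr14:24146619-24146648 on the minus strand and chr14:24136189-24136218 on the plus strand. The first matched base is at -21 in PSMB10, -28 in PSME2 and 6 in PSME1, where the match is on the opposite strand. PSME1 and PSME2 are neighbours on chromosome 14. The core of the antioxidant-type element that NFE2L1 binds with small MAF partners, searched as TGACNNNGC on both strands, was in 11 of 40 proteasome promoters (27.5%) and in 13.3% of all promoters. These were PSMB3, PSMC4, PSMD1, PSMD3, PSMD12, PSMB9, PSME1, PSME2, PSME4, PSMD5 and PSMD9, of which PSMD5, PSMD12 and PSME4 were called lower, PSMD9 higher and the other 7 not called in A375. By set, this core was in 5 of 26 constitutive subunits (19.2%) and in 3 of 5 inducible genes (60.0%). The lid subunit PSMD12 and the assembly chaperones PSMD5 and PSMD9 are shown as carriers that went in either direction.
PSMD5: tggctacagtTGACACGGCcctaacggagg
PSMD12: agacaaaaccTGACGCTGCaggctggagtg
PSMD9: cggcttccggTGACCCAGCtccgccctaag
The first lies at chr9:120843037-120843066 and the second at chr17:67366723-67366752, both on the minus strand, and the third, 1 of 2 matches in PSMD9, at chr12:121888678-121888707 on the plus strand. The CCAAT box was found in 19 of the 40 (47.5%) and in 34.6% of all promoters. A match to these letters is not evidence of binding.

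In A375, rapamycin lowered 7 structural subunits, the chaperones PSMD5, PSMD10 and POMP and the alternative caps PSME3 and PSME4, and raised PSMB10, the chaperone PSMD9 and the ATPase PSMC3, all by less than 1.5-fold. By edgeR's quasi-likelihood test, 15 of the 43 genes tested had an adjusted p under 0.05, 12 lower and 3 higher, where 28.1% of all 18844 genes passed, 13.8% of them lower and 14.3% higher. The 12 lower genes were 27.9% of the 43 and the 3 higher ones 6.98%. None passed a fold change of 1.5, a threshold of the study that 5.89% of all genes passed. The count depended on single libraries, with 7 genes without etoposide + rapamycin replicate 3, 8 without etoposide replicate 3 and 9 without etoposide + rapamycin replicate 1. The median log2 fold change of the 43 was -0.071, against -0.0051 for all genes tested. The 2 groups did not overlap for 20 genes that were lower and 5 that were higher with rapamycin, against 21.9% and 20.7% of all genes. In these bulk samples, fewer cells of a kind and less RNA per cell cannot be told apart, and since the labels do not say that the 3 libraries of a group came from separate cultures, p-values measure the spread between these libraries only.

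**Figure D2:**
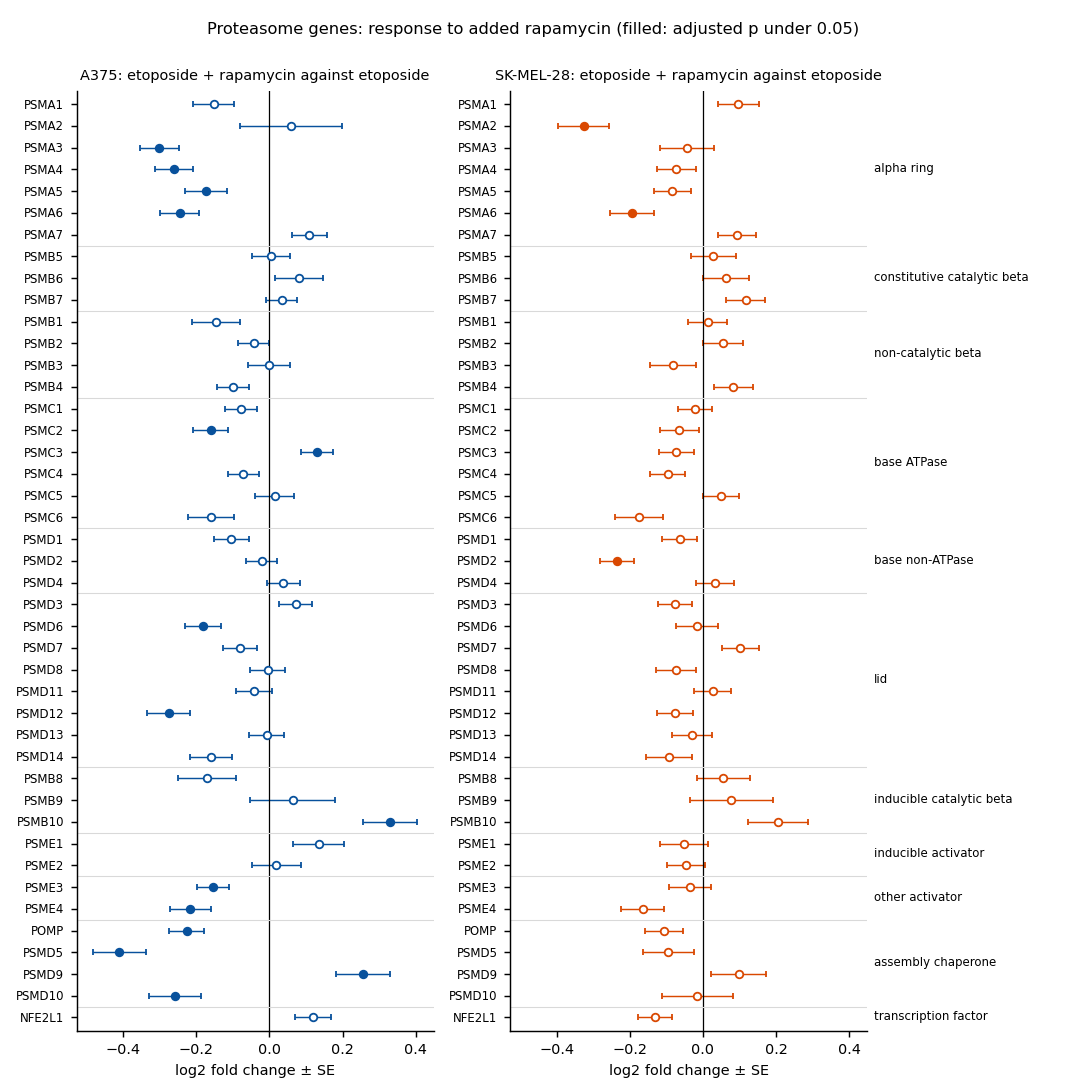
Log2 fold change ± SE of etoposide + rapamycin against etoposide for the 43 tested proteasome genes by role, A375 at left and SK-MEL-28 at right, filled where the adjusted p is under 0.05. In A375, 4 of 7 alpha subunits are filled to the left of 0, where 13.8% of all genes were called lower. PSMB10 lies furthest right there at 0.33. In SK-MEL-28 only PSMA2, PSMA6 and PSMD2 are filled, where 19% of all genes passed.

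The alpha ring, which gates the core, had 4 of its 7 subunits called lower in A375, where 13.8% of all genes were. PSMA3 was at 56.0, 58.0 and 59.3 CPM with etoposide and at 45.5, 48.4 and 46.3 CPM with rapamycin. Every library with rapamycin was below every library without it. The log2 fold change was -0.30 ± 0.053 (SE; edgeR adjusted p = 0.00120). PSMA4, PSMA5 and PSMA6 had log2 fold changes of -0.26, -0.17 and -0.25, while PSMA7, the most abundant alpha subunit per length, was at 0.11 (edgeR adjusted p = 0.108), with the groups apart in the higher direction. PSMA1 (-0.15) and PSMA2 (0.058) did not pass the test.

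In the beta ring, none of the 3 constitutive catalytic and 4 non-catalytic subunits passed the test in A375, where 28.1% of all genes did. PSMB5 was at 122, 134 and 134 CPM with etoposide and at 132, 123 and 133 CPM with rapamycin. PSMB6 was at 69.1, 80.2 and 78.5 CPM with etoposide and at 85.7, 74.8 and 79.6 CPM with rapamycin. PSMB7 was at 217, 219 and 226 CPM with etoposide and at 229, 221 and 226 CPM with rapamycin. All 3 overlapped between the groups, with log2 fold changes of 0.0049 ± 0.052, 0.081 ± 0.066 and 0.034 ± 0.042 (SE). The non-catalytic PSMB1, PSMB2, PSMB3 and PSMB4 ranged from -0.15 to -0.00076 in log2 fold change, with the groups of PSMB2 and PSMB4 apart in the lower direction.

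Of the 19S cap, which recognises and unfolds ubiquitinated substrates, 4 of 17 genes passed in A375, where 28.1% of all genes did. The ATPase PSMC2 fell by 0.16 and the lid subunits PSMD6 and PSMD12 by 0.18 and 0.28 on the log2 scale. The ATPase PSMC3 went the other way, by 0.13 (edgeR adjusted p = 0.0452), close to the threshold. The 3 non-ATPase subunits of the base, PSMD1 and PSMD2, which form its scaffold, and the ubiquitin receptor PSMD4, had log2 fold changes of -0.10, -0.022 and 0.038 with no call.

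All 4 assembly chaperones among the 43 genes passed in A375, where 28.1% of all genes did. Of the assembly factors outside the name rule, PSMG3 was called higher (log2 fold change 0.24, edgeR adjusted p = 0.0340). PSMG1, PSMG2, PSMG4 and PAAF1 were not called. PSMD5, a chaperone of the base that can also hold back assembly, was at 59.9, 60.1 and 64.5 CPM with etoposide and at 51.1, 45.9 and 41.4 CPM with rapamycin. Every library with rapamycin was below every library without it. Its log2 fold change of -0.41 ± 0.072 (SE; edgeR adjusted p = 0.00116) was the largest of the 43 genes and ranged from -0.49 to -0.34 when each library was left out. POMP was at 163, 173 and 176 CPM with etoposide and at 141, 150 and 145 CPM with rapamycin. These groups did not overlap either, and the log2 fold change was -0.23 ± 0.048 (SE; edgeR adjusted p = 0.00386). PSMD10 (gankyrin) fell by 0.26 on the log2 scale, and PSMD9, the last of the 4, rose by 0.26 (edgeR adjusted p = 0.0200).

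The alternative caps PSME3 (PA28 gamma, nuclear) and PSME4 (PA200) were lower with rapamycin in A375. PSME4 was at 173, 149 and 165 CPM with etoposide and at 136, 143 and 138 CPM with rapamycin. PSME3 was at 204, 193 and 206 CPM with etoposide and at 182, 180 and 178 CPM with rapamycin. Each pair of groups was apart, with log2 fold changes of -0.22 ± 0.056 for PSME4 (edgeR adjusted p = 0.0118) and -0.15 ± 0.044 for PSME3 (SE; edgeR adjusted p = 0.0198). These calls were not firm, since PSME3 kept an adjusted p under 0.05 in 2 of 6 fits that left out a library (up to 0.0816, without etoposide replicate 3) and PSME4 in 4 of 6 (up to 0.0584, without etoposide + rapamycin replicate 1).

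Among the 5 inducible genes PSMB10 alone passed in A375. PSMB10 (MECL-1, ENSG00000205220.12, chromosome 16, GRCh38) was at 26.1, 26.9 and 27.1 CPM with etoposide and at 32.3, 32.1 and 36.0 CPM with rapamycin. All rapamycin libraries were above all etoposide libraries. Its log2 fold change of 0.33 ± 0.074 (SE; edgeR adjusted p = 0.00536), 25.7% higher, kept its call with each library left out (0.27 to 0.36). Its assembled locus also held the row AC040162.1, with 42.0% as many counts, and a protein-coding gene of the annotation shares 640 exon bases with PSMB10 on the same strand. With all rows of the locus summed, an alternative chosen after seeing the data, the log2 fold change was 0.29 (edgeR adjusted p = 0.00420). The rule by which reads were assigned among rows of a locus is not given in the sources used here.

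The other inducible genes gave a mixed picture in A375. PSMB8 (LMP7) was at 34.9, 35.9 and 34.6 CPM with etoposide and at 32.6, 33.1 and 27.6 CPM with rapamycin. The rapamycin libraries were lower without overlap, but the log2 fold change of -0.17 ± 0.079 (SE) had an edgeR adjusted p of 0.131. PSMB9 (LMP2) was at 11.2, 11.2 and 14.5 CPM with etoposide and at 12.9, 12.9 and 12.6 CPM with rapamycin. Its groups overlapped, and the log2 fold change was 0.064 ± 0.12 (SE). PSMB8 and PSMB9 overlap on opposite strands by 139 exon bases, and without strand their reads there cannot be told apart. The gene PSMB8-AS1 shares 602 exon bases with PSMB8 on the opposite strand and 174 with PSMB9 on the same strand. With all rows of its locus summed (chosen after seeing the data), PSMB9 was at 0.028 (edgeR adjusted p = 0.889). PSME1 was at 63.1, 78.5 and 69.7 CPM with etoposide and at 77.1, 75.5 and 78.5 CPM with rapamycin, and PSME2 was at 60.9, 73.7 and 70.0 CPM and at 71.3, 68.1 and 67.2 CPM. Both overlapped between the groups, with log2 fold changes of 0.13 ± 0.069 and 0.019 ± 0.067 (SE). PSME1 passed without A375 etoposide replicate 2 (0.22, edgeR adjusted p = 0.0202).

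Set beside each other in A375, the 31 constitutive subunits had 7 lower and 1 higher, with a median log2 fold change of -0.071. The 5 inducible genes had 1 higher and none lower, with a median of 0.064. Of all genes tested, 13.8% were called lower and 14.3% higher, with a median of -0.0051. The inducible median ranged from 0.0041 to 0.13 when each library was left out, so it rests on few genes and single libraries. Summed CPM of the constitutive subunits was 5022 ± 151 with etoposide and 4826 ± 45.5 with rapamycin (SD, n = 3), and the lowest etoposide library (4848) was below the highest rapamycin library (4875). For the inducible genes the sums were 213 ± 15.3 and 223 ± 2.52 (SD, n = 3), also overlapping. The ratio of PSMB10 to PSMB7 CPM was 0.120, 0.123 and 0.120 with etoposide and 0.141, 0.145 and 0.159 with rapamycin, the ratio of PSMB8 to PSMB5 was 0.287, 0.269 and 0.259 against 0.246, 0.268 and 0.207, and that of PSMB9 to PSMB6 was 0.162, 0.139 and 0.185 against 0.151, 0.173 and 0.158. Of these catalytic pairs, only PSMB10 to PSMB7 had groups that did not overlap.

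**Figure D3:**
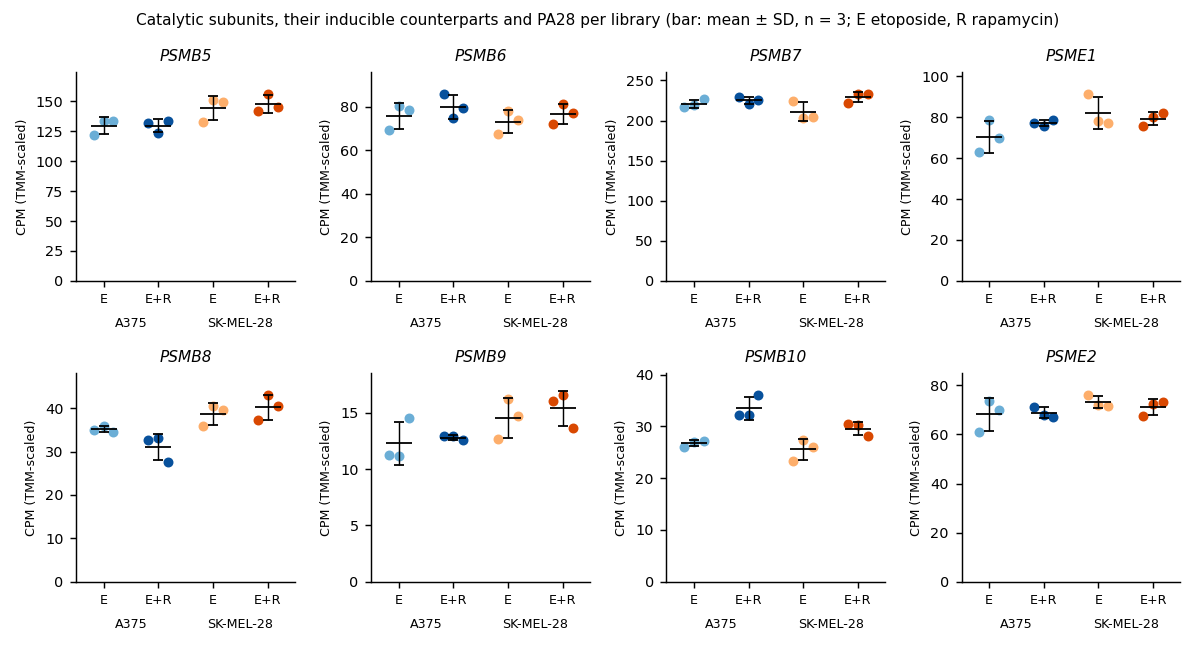
CPM per library (TMM-scaled) of the catalytic subunits PSMB5, PSMB6 and PSMB7, their inducible counterparts PSMB8, PSMB9 and PSMB10, and PSME1 and PSME2, points for the 3 libraries per group and bars for mean ± SD. PSMB10 is higher with rapamycin in both lines without overlap (26.7 to 33.5 CPM on average in A375, 25.6 to 29.6 CPM in SK-MEL-28).

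In SK-MEL-28, few proteasome genes passed the test for rapamycin, and those that did were lower. By edgeR's quasi-likelihood test, 3 of the 43 genes had an adjusted p under 0.05, none higher, where 19% of all 18897 genes passed, 10.1% of them lower and 8.83% higher. None passed the fold change of 1.5 (4.99% of all genes). The median log2 fold change was -0.043, against 0.0053 for all genes tested, and the groups did not overlap for 13 lower and 3 higher genes, against 18.1% and 17.8% of all genes. DESeq2 called 5 genes and scaling by library totals 6, all lower. With all rows of a locus summed (chosen after seeing the data), PSMA2 (edgeR adjusted p = 0.237) and PSMA6 (0.162) lost their calls.

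PSMD2, a scaffold subunit of the base that docks ubiquitin-binding factors, was at 464, 469 and 467 CPM with etoposide and at 387, 390 and 416 CPM with rapamycin in SK-MEL-28. All libraries with rapamycin were below all without. The log2 fold change was -0.23 ± 0.046 (SE; edgeR adjusted p = 0.00342), a fall by 15.0%, and it kept its call with each library left out (-0.27 to -0.21).

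PSMA6 was the single gene called in the same direction in both lines, and no gene was called higher in both or in opposite directions. Of 18140 genes tested in both lines, 5.57% were lower and 5.26% higher in both. PSMA6, an alpha subunit, was at 110, 123 and 122 CPM with etoposide and at 103, 98.9 and 96.6 CPM with rapamycin in A375, and at 131, 126 and 118 CPM and 111, 115 and 103 CPM in SK-MEL-28. In either line the groups were apart, with log2 fold changes of -0.25 ± 0.054 in A375 (edgeR adjusted p = 0.00460) and -0.19 ± 0.059 in SK-MEL-28 (SE; edgeR adjusted p = 0.0373). The call in SK-MEL-28 was lost without etoposide replicate 1 (-0.16, edgeR adjusted p = 0.102) or 2 (-0.19, 0.101), without etoposide + rapamycin replicate 1 (-0.20, 0.0639) or 3 (-0.15, 0.177), and with all rows of the locus summed (-0.13, 0.162). PSMA6 shares that locus with KIAA0391 and with the row AL121594.3, which held from 81 to 855 counts.

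PSMA2, another alpha subunit, depended on how a shared locus was counted. In SK-MEL-28 it was at 93.3, 93.1 and 83.8 CPM with etoposide and at 70.3, 79.7 and 66.1 CPM with rapamycin, and in A375 at 92.2, 54.0 and 81.8 CPM and at 77.8, 74.5 and 84.4 CPM. The groups were apart in SK-MEL-28 and overlapped in A375, where etoposide replicate 2 was low. The log2 fold change was -0.33 ± 0.069 in SK-MEL-28 (edgeR adjusted p = 0.00541) and 0.058 ± 0.14 in A375 (SE; edgeR adjusted p = 0.802). The row AC010132.3 of the same assembled locus held 1813 counts in that A375 library against 219 and 859 in the other 2 with etoposide. With PSMA2, AC010132.3 and C7orf25 summed, the log2 fold change was -0.18 in A375 (edgeR adjusted p = 0.00930) and -0.098 in SK-MEL-28 (edgeR adjusted p = 0.237), so the call moved from one line to the other.

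**Figure D4:**
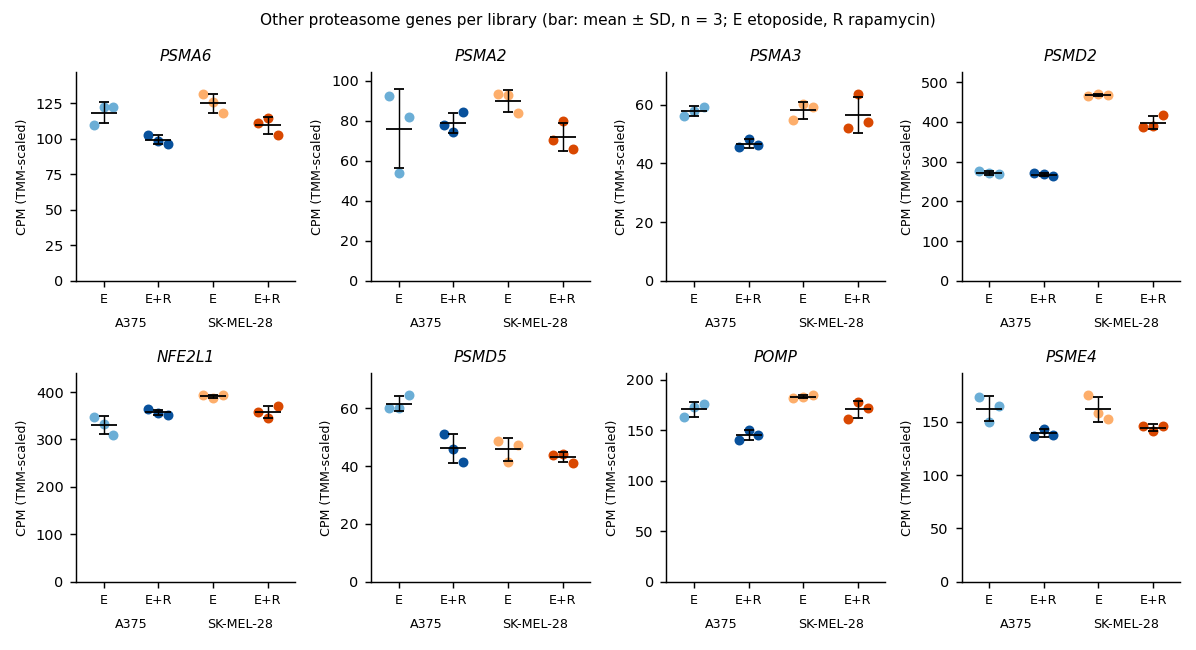
CPM per library (TMM-scaled) of PSMA6, PSMA2, PSMA3, PSMD2, NFE2L1, PSMD5, POMP and PSME4, points for the 3 libraries per group and bars for mean ± SD. PSMD2 is at 263 to 277 CPM in all A375 libraries and at 387 to 469 CPM in SK-MEL-28, and PSMA2 in A375 with etoposide spreads from 54.0 to 92.2 CPM.

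None of the 5 inducible genes passed in SK-MEL-28, where 19% of all genes did. PSMB10 was at 23.4, 27.4 and 26.0 CPM with etoposide and at 30.4, 30.2 and 28.1 CPM with rapamycin. The groups were apart and in the same direction as in A375, but the log2 fold change of 0.20 ± 0.081 (SE) had an edgeR adjusted p of 0.101, and with all rows of the locus summed it was 0.13 (edgeR adjusted p = 0.206). PSMB8 (0.055), PSMB9 (0.078), PSME1 (-0.053) and PSME2 (-0.046) overlapped between the groups. PSMB8 was at 35.8, 40.5 and 39.5 CPM with etoposide and at 37.2, 43.0 and 40.6 CPM with rapamycin, and PSMB9 at 12.7, 16.3 and 14.7 CPM and at 16.1, 16.6 and 13.6 CPM. PSME1 was at 91.3, 78.1 and 77.2 CPM with etoposide and at 75.7, 80.2 and 82.3 CPM with rapamycin, and PSME2 at 76.0, 72.2 and 71.4 CPM and at 67.3, 72.5 and 73.4 CPM. The 5 inducible genes had a median log2 fold change of 0.055 and the 31 constitutive subunits one of -0.043. Of the latter, 3 were called lower, where 10.1% of all genes were. With each library left out, these medians ran from 0.0053 to 0.090 and from -0.070 to -0.013. The ratio of PSMB10 to PSMB7 was 0.104, 0.135 and 0.127 with etoposide and 0.137, 0.130 and 0.121 with rapamycin, and it overlapped, as did the other catalytic ratios.

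The constitutive catalytic subunits, alternative caps and POMP did not pass edgeR's test in SK-MEL-28. PSMB5 was at 133, 151 and 150 CPM with etoposide and at 142, 156 and 145 CPM with rapamycin, PSMB6 at 67.5, 78.0 and 74.1 CPM and at 72.0, 81.2 and 77.0 CPM, and PSMB7 at 225, 203 and 205 CPM and at 222, 233 and 233 CPM. Their log2 fold changes were 0.028, 0.064 and 0.12, all with overlapping groups, and PSMB7 passed without SK-MEL-28 etoposide replicate 1 (0.17, edgeR adjusted p = 0.0450). PSME4 was at 175, 158 and 152 CPM with etoposide and at 146, 141 and 146 CPM with rapamycin, apart and lower as in A375 (log2 fold change -0.17 ± 0.058 SE, edgeR adjusted p = 0.0669), and it passed with DESeq2 (adjusted p = 0.0287) and with library totals (-0.20, edgeR adjusted p = 0.0308). POMP was at 182, 183 and 185 CPM with etoposide and at 161, 178 and 172 CPM with rapamycin, also apart and lower (-0.11, edgeR adjusted p = 0.177). PSME3 was at 247, 222 and 220 CPM with etoposide and at 222, 218 and 234 CPM with rapamycin and overlapped. The A375 calls PSMA3 (52.0 to 63.6 CPM over the SK-MEL-28 libraries, log2 fold change -0.043) and PSMD5 (41.0 to 48.7 CPM, -0.094) overlapped between the groups here.

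Fewer genes passing in SK-MEL-28 than in A375 does not show that the lines responded differently, which was tested in a fit of all 12 libraries. In that test 2 of the 43 genes had an adjusted p under 0.05, both with a lower log2 fold change in SK-MEL-28, where 5.62% of all 20101 genes passed (2.97% lower and 2.66% higher). Neither passed a fold change of 1.5, which 1.62% of all genes did. NFE2L1 was at 348, 333 and 310 CPM with etoposide and at 364, 356 and 352 CPM with rapamycin in A375, and at 393, 386 and 393 CPM and 358, 345 and 370 CPM in SK-MEL-28. Rapamycin libraries were thus all higher in A375 and all lower in SK-MEL-28. The difference was -0.24 ± 0.063 (SE; edgeR adjusted p = 0.0346), from log2 fold changes of 0.12 in A375 (adjusted p = 0.0919 by edgeR) and -0.13 in SK-MEL-28 (0.0666), neither past the test within its line. NFE2L1 passed in SK-MEL-28 with DESeq2 (adjusted p = 0.0232) and with library totals (-0.16, edgeR adjusted p = 0.0250), and in A375 without etoposide replicate 1 (0.16, edgeR adjusted p = 0.0186). For PSMD2, which overlapped in A375 (277, 271 and 268 against 270, 267 and 263 CPM) and fell in SK-MEL-28, the difference was -0.20 ± 0.055 (SE; edgeR adjusted p = 0.0395).

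Both differences sat near the threshold. With each library left out in turn, NFE2L1 and PSMD2 each passed in 3 of 12 fits, with edgeR adjusted p from 0.00962 to 0.0918 and from 0.0249 to 0.0956, while the values stayed between -0.30 and -0.20 and between -0.24 and -0.18. Of the genes that were called lower in A375 while the SK-MEL-28 test did not pass, PSMA3 (difference 0.27, edgeR adjusted p = 0.122), PSMA4 (0.20, 0.137), PSMD12 (0.21, 0.126), PSMD5 (0.32, 0.0889) and POMP (0.13, 0.305) were not shown to differ between the lines by this test, nor was PSMB10 (-0.12, 0.586). PSMD5 passed with DESeq2 (0.31, adjusted p = 0.0486) and without A375 etoposide + rapamycin replicate 1 (0.41, edgeR adjusted p = 0.0406). The median difference was 0.060 over the 31 constitutive subunits and -0.056 over the 5 inducible genes, against 0.018 over all genes. With each library left out they ran from 0.029 to 0.078 and from -0.12 to 0.0051, the latter changing sign without A375 etoposide replicate 1.

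Under etoposide alone, more proteasome genes were higher in SK-MEL-28 than in A375, PSMD2 by far the most. By edgeR's quasi-likelihood test 15 of the 43 genes had an adjusted p under 0.05, 13 higher and 2 lower in SK-MEL-28, where 31.8% of all 20101 genes passed, 15.1% of them higher and 16.7% lower. The 13 higher genes were 30.2% of the 43. The libraries of the lines did not overlap for 15 higher and 3 lower genes, against 20.9% and 22.4% of all genes. PSMD2 was the only one past a fold change of 1.5 (12.5% of all genes were), at 464 to 469 CPM in SK-MEL-28 against 268 to 277 CPM in A375. Its log2 difference of 0.78 ± 0.039 (SE; edgeR adjusted p = 1.06e-10), 71.8% higher, ranked 136 of all genes by p. PSMD2 (ENSG00000175166.17) lies on chromosome 3.

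The other genes that were higher in SK-MEL-28 differed by less. NFE2L1 and PSMD3, a lid subunit, each had a log2 difference of 0.24, PSMD4 and PSME3 each of 0.19, PSMD11 of 0.17, PSMD1 of 0.15, and PSMB2, PSMD13, PSMA4, PSMC3 and PSMC4 of 0.12 to 0.15. All 3 non-ATPase subunits of the base were among them, where 15.1% of all genes were called higher. PSME1 (0.22, edgeR adjusted p = 0.0322) overlapped between the lines and lost its call without A375 etoposide replicate 1 (0.15, 0.143) or 3 (0.22, 0.0760) or SK-MEL-28 etoposide replicate 1 (0.14, 0.178). The 2 lower genes were PSMD5, at 41.4 to 48.7 CPM in SK-MEL-28 against 59.9 to 64.5 CPM in A375 (log2 difference -0.43 ± 0.075 SE, edgeR adjusted p = 0.000307), and PSMB4 (-0.13, edgeR adjusted p = 0.0464), whose groups overlapped.

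**Figure D5:**
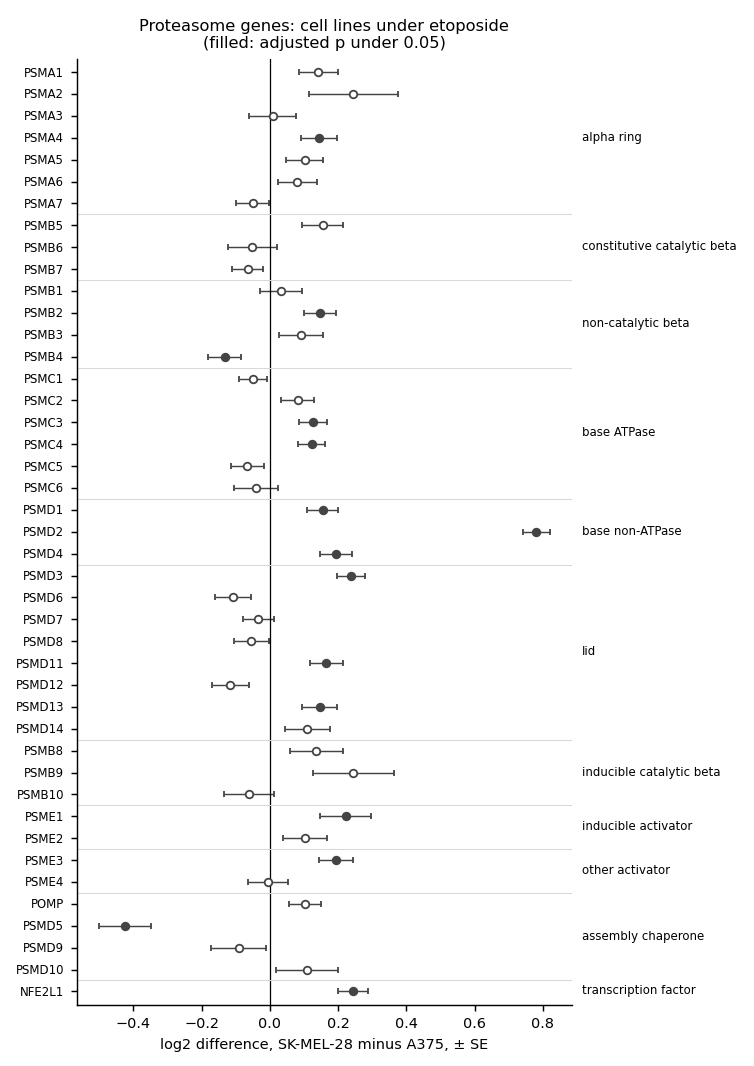
Log2 difference ± SE between SK-MEL-28 and A375 under etoposide for the 43 tested proteasome genes by role, filled where the adjusted p is under 0.05. PSMD2 stands apart at 0.78, and PSMD5 lies furthest left at -0.43.

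By set, 10 of the 31 constitutive subunits were called higher and 1 lower in SK-MEL-28, with a median log2 difference of 0.092. Of the 5 inducible genes, 1 (PSME1) was called higher, with a median of 0.14. For all genes the shares were 15.1% higher and 16.7% lower, and the median was -0.0045. The inducible catalytic subunits PSMB8 (0.14 ± 0.076), PSMB9 (0.24 ± 0.12) and PSMB10 (-0.062 ± 0.074 SE) did not pass. PSMB9 passed without A375 etoposide replicate 3 (0.38, edgeR adjusted p = 0.0258). The constitutive PSMB5 (0.15 ± 0.060 SE, edgeR adjusted p = 0.0582) passed only under alternatives, such as DESeq2 (0.17, adjusted p = 0.0220) and library totals (0.16, edgeR adjusted p = 0.0446). PSMB6 (-0.053) and PSMB7 (-0.066) did not pass. The ratio of PSMB9 to PSMB6 was higher in SK-MEL-28 without overlap (0.188, 0.208 and 0.199 against 0.162, 0.139 and 0.185), while the PSMB8 to PSMB5 and PSMB10 to PSMB7 ratios overlapped.

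Genes that act with the proteasome were described from lists of partners, regulators, ubiquitin sources and antigen processing. Of 22 partners and assembly factors, 4 were higher and 1 lower with rapamycin in A375 and 3 higher and 1 lower in SK-MEL-28, where 14.3% and 13.8% of all genes passed in A375 and, for SK-MEL-28, 8.83% and 10.1%. ADRM1, a ubiquitin receptor of the base, rose in A375 (0.39, edgeR adjusted p = 7.50e-05) by more than in SK-MEL-28 (difference -0.27, edgeR adjusted p = 0.0333). ZFAND5 fell in A375 (-0.15, edgeR adjusted p = 0.0285), and PSME3IP1, a partner of PSME3, rose in SK-MEL-28 (0.23, edgeR adjusted p = 0.00841). The median log2 fold changes of this list were 0.023 and 0.061.

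Some relatives of NFE2L1 rose with rapamycin in both lines. Of 10 such relatives and processing enzymes, 4 were higher and 1 lower in A375 and 4 higher in SK-MEL-28, against 14.3%, 13.8% and 8.83% of all genes. The small MAF genes MAFF, MAFG and MAFK, which encode partners of NFE2L1 and NFE2L2 on DNA, and NFE2L3 were the 4 higher genes in either line. MAFF was at 82.4, 88.5 and 81.2 CPM with etoposide and at 149, 149 and 161 CPM with rapamycin in A375, and at 46.7, 52.1 and 54.4 CPM and 79.2, 87.9 and 83.8 CPM in SK-MEL-28. Its groups were well apart, with log2 fold changes of 0.87 ± 0.053 (edgeR adjusted p = 4.38e-07) and 0.71 ± 0.064 (SE; edgeR adjusted p = 8.32e-06). NFE2L3 rose by 0.45 in A375 and by 0.72 in SK-MEL-28, which differed (0.28, edgeR adjusted p = 0.0108). MAFK was higher by 0.59 in A375 and MAFG by 0.27 in SK-MEL-28. Under etoposide 6 of the 10 were lower in SK-MEL-28 than in A375, as were 16.7% of all genes, led by NFE2L3 (-0.86), MAFF (-0.72) and MAFG (-0.51).

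RPS27A, which encodes ubiquitin fused to a ribosomal protein, was higher with rapamycin in both lines (log2 fold changes 0.21 in A375 and 0.39 in SK-MEL-28, edgeR adjusted p = 0.00465 and 0.000139), and the polyubiquitin gene UBB passed in neither. Of the 16 genes of class I antigen processing and interferon regulation, 3 were higher and 6 lower in A375 and 2 higher and 4 lower in SK-MEL-28, against 14.3% and 13.8% of all genes in A375 and, for SK-MEL-28, 8.83% and 10.1%, with medians of 0.018 and -0.047. IRF1, an activator of inducible proteasome genes, was at 29.3, 29.9 and 27.3 CPM with etoposide and at 45.5, 44.9 and 45.8 CPM with rapamycin in A375, and at 24.7, 30.4 and 27.6 CPM and 35.0, 35.9 and 36.0 CPM in SK-MEL-28. The groups were apart in both lines, with log2 fold changes of 0.66 ± 0.063 (edgeR adjusted p = 1.35e-05) and 0.37 ± 0.081 (SE; edgeR adjusted p = 0.00694). IRF9, which carries the interferon signal, fell in both lines (-0.40 in A375 and -0.69 in SK-MEL-28), as did the endoplasmic reticulum chaperones of peptide loading CALR (-0.36 and -0.53) and PDIA3 (-0.43 and -0.42). No gene of this list was called for a difference between the lines.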

How the data were processed

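Per the labels and the methods of the study, polyA-selected libraries were sequenced on a NovaSeq instrument, reads were aligned with HISAT to hg38, and expression was estimated with StringTie on an Ensembl annotation. The authors deposited raw counts per gene and library, unnormalized and unpooled. How coverage became counts is not given in the sources used here. Unnamed rows held at most 0.00529% of the counts and were left out. Tests used edgeR 4.0.16 in R 4.3.3 (filterByExpr with a minimum count of 10, TMM, glmQLFit, glmQLFTest) p-values adjusted over the whole table by Benjamini-Hochberg, and calls at an adjusted p under 0.05. Each line was fitted alone for rapamycin, and all 12 libraries together for the difference in response and between lines. SE is the log2 fold change over the square root of F. CPM were TMM-scaled, and lengths were those of GENCODE canonical transcripts. A repeated symbol took the row with the highest mean count. Described with values in every library were the catalytic, cap and regulator genes, genes called in both lines or for a difference, and the 3 genes with the largest change per line. The genes and lists were chosen with earlier results of these data known. The tests were tried on simulated data. Library totals were 28189501 counts or more. Alternatives were DESeq2 1.42.0, other scalings and filters, a replicate block, summed rows, 1 fit of all libraries, leaving out each library, and a threshold on the fold change. Some genes of the lists are not reported here.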

Additional observations from a re-analysis of the deposited data

Results flagged for a closer look

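The test of the difference in response between the lines passed for NFE2L1 and PSMD2, close to its threshold. The difference in log2 fold change, SK-MEL-28 minus A375, was -0.24 for NFE2L1, whose libraries with rapamycin were all higher in A375 and all lower in SK-MEL-28, and -0.20 for PSMD2, which was called lower in SK-MEL-28 and overlapped in A375. Each passed in 3 of 12 edgeR fits that left out a library, and neither passed with a replicate block (edgeR adjusted p = 0.0613 and 0.0964) or a filter of 1 count (0.0616 and 0.0664). The causes were not tested.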

How the results depend on the processing

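Standard errors were 0.0414 to 0.140 on the log2 scale in A375 (median 0.0524) and 0.0461 to 0.114 in SK-MEL-28 (median 0.0542). A change no larger than the gene's own standard error was not detectable. Counting error and the spread between replicates were not separated.

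No gene passed with a fold change over 1.5, except PSMD2 between the lines (1). In A375 the count of 15 ran from 7 to 18 with each library left out (7 without etoposide + rapamycin replicate 3, 8 without etoposide replicate 3, 9 without etoposide + rapamycin replicate 1), the 12 lower from 6 to 16 and the 3 higher from 1 to 4, and the higher count was 1 with a filter of 1 count. In SK-MEL-28 the count of 3 was 5 with DESeq2, 6 with library totals and 1 with all rows of a locus summed (chosen after seeing the data), and ran from 2 to 3, with 0 to 1 higher and 2 to 3 lower, with each library left out. Between the lines, 15 ran from 10 to 14 (8 to 13 higher and 1 to 2 lower), with 1 lower gene under RLE size factors, filters of 1 or 10 counts, summed symbols or the 6 etoposide libraries alone. For the difference in response, 2 became 5 with DESeq2 (2 of them higher) and 0 with a filter of 1 count, and ran from 0 to 3 (0 to 1 higher, 0 to 2 lower) with each library left out.

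The median log2 fold change of the constitutive subunits in A375 was -0.12 with library totals. With each library left out, the median of the inducible genes in A375 ran from 0.0041 to 0.13, that of the constitutive subunits between the lines from 0.052 to 0.12, and that of the inducible genes for the difference from -0.12 to 0.0051, changing sign without A375 etoposide replicate 1. PSMA2 in A375 changed sign to -0.18 with its locus summed. Of the other values of single genes under an alternative, 1146 kept their call or lack of one, 42 lost their call and 18 gained one. The 1146 include changes of sign in genes called in neither fit, such as PSMB5 in A375 (-0.037 to 0.042 with each library left out). The causes were not tested.

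Same-numbered libraries showed no shared deviation. Their deviations correlated at -0.0463 to -0.00499, and 0 of 6 etoposide libraries correlated best with the rapamycin library of their number. Whether they shared a culture or a day cannot be told from these values. With the replicate block, 11 genes passed in A375, 3 in SK-MEL-28, 16 between the lines and 0 for the difference.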
